A study of Mus musculus with 32 samples.

Results

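The enzymes that consume NAD were followed through 10 genes, which are the 7 sirtuins (Sirt1 to Sirt7), the poly(ADP-ribose) polymerases Parp1 and Parp2, and Cd38. They were taken by symbol from the 41388 genes counted, and each symbol matched 1 Ensembl identifier. RNA was sequenced from 32 libraries of primary chondrocytes of the mouse sternum, 2 libraries for each of 16 groups, on a C57BL/6 background. The cells came from newborn pups, were grown in normoxia and were not passaged. Cells of 3 lines, called LDHA flox, NAMPT flox and NFKBIZ flox, held loxP sites around Ldha, Nampt or Nfkbiz, so that Cre recombinase removes that gene. They were exposed for 24 h to adenovirus carrying eGFP alone (GFP) or Cre with eGFP (Cre), and were then kept for another 24 h with or without the inflammatory cytokine IL-1b at 10 ng/mL. The GFP controls carried the same floxed alleles and also received a virus. Cre came from the virus and not from a transgene with its own cell type promoter, so that every infected cell type of a culture could be recombined. Wild type (WT) chondrocytes received no virus and were left untreated or were given IL-1b, FX11 at 40 uM, an inhibitor of the enzyme LDHA, or both agents for 24 h.

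NAD is both a carrier of electrons and a substrate that some enzymes split. Sirtuins use it to remove acyl groups from proteins, PARPs use it to attach ADP-ribose to proteins, and CD38 cleaves it into nicotinamide and ADP-ribose products. NAMPT rebuilds NAD from the nicotinamide that these reactions release, and LDHA turns NADH back into NAD+ when it makes lactate. NFKBIZ is a nuclear cofactor of NF-kB that IL-1b induces. In cartilage, SIRT1 and SIRT6 are best known for restraining inflammatory and catabolic genes.

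Totals ranged from 15830658 to 39959888 counts per library. The labels number the libraries in 2 sets, and each LDHA flox, NAMPT flox and WT group has 1 library from each set, whereas all 8 NFKBIZ flox libraries are of set 2. The labels do not say that the libraries of a group came from separate animals or cultures, so the p-values measure the spread between these libraries, which may be technical. The targeted genes followed the labels of the floxed lines. Ldha stood at 917 and 868 CPM (counts relative to the library total, scaled with TMM factors) in the LDHA flox GFP libraries and at 118 and 111 CPM in the Cre libraries. Nampt stood at 59.4 and 54.5 CPM with GFP and at 6.71 and 6.85 CPM with Cre in NAMPT flox. Nfkbiz stood at 235 and 229 CPM with GFP + IL-1b and at 29.4 and 32.3 CPM with Cre + IL-1b in NFKBIZ flox. There were 2 WT libraries of set 2 that went against their labels by Mmp3, a matrix protease that IL-1b induces. The library labelled IL-1b held 0.810 CPM of Mmp3 and the library labelled FX11 held 2014 CPM. The 8 chondrocyte markers checked, Col2a1 and Acan among them, summed to between 13041 and 84592 CPM, and none was at 0 in any library.

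Compared per length of transcript, as RPKM (CPM per kilobase of exon), the members fell into an upper and a lower tier over the 24 floxed libraries. Parp1, the main DNA-damage-activated PARP, had a median level of 20.4 RPKM, with a range of 15.3 to 22.8. Sirt2, the mostly cytoplasmic deacetylase whose substrates include tubulin, had a median of 19.2 RPKM (13.1 to 27.5). Parp2, the closest relative of Parp1, stood at 11.8 RPKM (8.71 to 15.0), and Sirt6, a chromatin-bound histone deacetylase, at 11.7 RPKM (9.37 to 14.5). The lower tier began with Sirt1, the nuclear deacetylase of many transcription factors, at 3.99 RPKM (2.74 to 4.90). Sirt7, the sirtuin of the nucleolus, had a median of 3.74 RPKM and Sirt3, the main mitochondrial deacetylase, one of 3.59 RPKM. The other mitochondrial members, Sirt4 and the desuccinylase Sirt5, followed at 2.94 and 2.55 RPKM. Cd38 was last, with a median of 0.0593 RPKM and a range from 0 to 2.95 RPKM. Every pair of neighbours in this order overlapped in range except Sirt6 and Sirt1, whose ranges were separate.

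**Figure D1:**
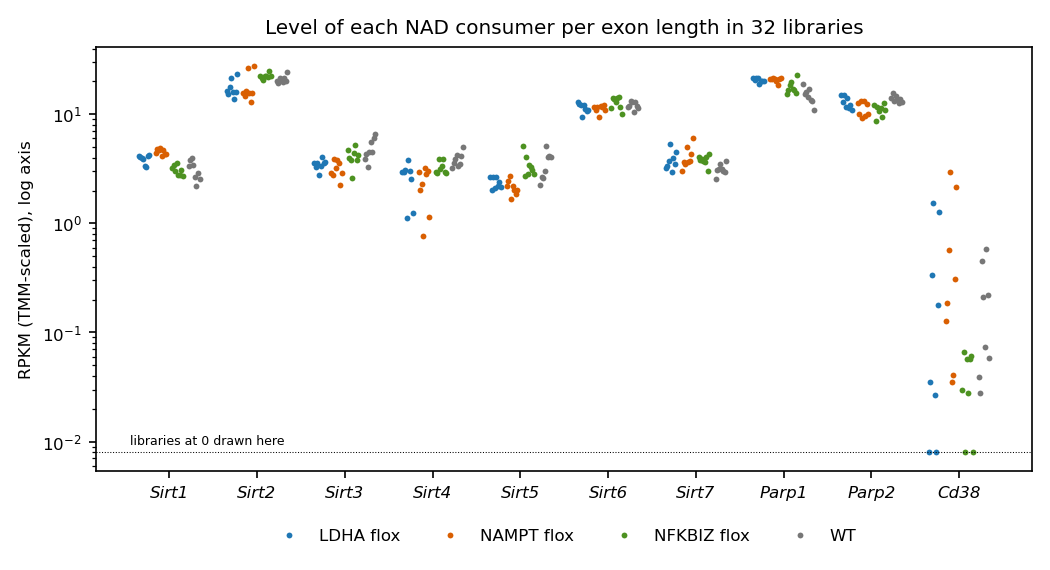
Level of each of the 10 genes in all 32 libraries, as RPKM on a log axis, with 1 point per library grouped by line and libraries at 0 drawn at the bottom line. Parp1 and Sirt2 lie highest, and Cd38 spans from 0 to 2.95 RPKM.

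The genes lie apart in the genome, and some share bases with a neighbour. In the files' annotation (GRCm38) Cd38 lies on the plus strand at chr5:43868809-43912375, and Bst1, which encodes the related ectoenzyme CD157, lies before it on the same strand at chr5:43818886-43843247, a gap of 25561 bases. Sirt4 lies on the minus strand at chr5:115478010-115484725, and it overlaps no other gene. Sirt2 at chr7:28766735-28788665 overlaps Nfkbib on the opposite strand, Sirt3 at chr7:140863670-140882309 overlaps Psmd13 and Ric8a on the opposite strand, and Sirt7 at chr11:120618372-120625240 overlaps Mafg on its own strand. Cd38 overlaps Gm16014 on its own strand and Gm16015 on the opposite strand, which reached at most 0.333 and 0.134 CPM in any library. Whether counting used the strand is not given in the sources used here, so reads in the shared bases cannot be assigned with certainty.

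Cd38 held fewer CpGs in the window before its RefSeq start than the other members. In the 250 bases before the RefSeq start (GRCm38.p6), Cd38 held 1 CpG, and 7.87% of 32851 mouse promoters of the same length held fewer. Sirt1 held 39, and 98.4% of promoters held fewer. The other windows held between 12 and 21 CpGs, against a median of 6 over all promoters. The window of Parp1, the member with the highest level, and the 30 bases around the single CpG of Cd38, the member with the lowest, are shown because they stand at the ends of the order of levels and differ in CpG number (16 against 1), with each CpG in capitals. The Parp1 window is at chr1:180568641-180568890 on the plus strand, and the Cd38 stretch comes from the window at chr5:43868559-43868808, also on the plus strand. GENCODE release M21 places the Cd38 window wholly inside the Cd38 gene. The windows of Sirt1 and Sirt4, a window of Sirt3 and a window of Sirt6 also lie wholly inside their genes there.
Parp1: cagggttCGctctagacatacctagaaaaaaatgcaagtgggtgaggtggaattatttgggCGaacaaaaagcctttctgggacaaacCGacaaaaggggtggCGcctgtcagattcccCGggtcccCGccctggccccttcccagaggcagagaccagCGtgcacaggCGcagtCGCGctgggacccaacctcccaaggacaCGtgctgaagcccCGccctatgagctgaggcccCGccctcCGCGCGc
Cd38: agtccagtcacctcCGtggaactttggagc
The windows were also searched on both strands for the kappaB motif, an AP-1 motif (TGANTCA), a GC box (GGGCGG) and CCAAT. No member's window held these kappaB or AP-1 letters, which 1.41% and 6.75% of all promoters hold. Other forms of the kappaB motif were not searched, and the Sirt2 window held GGGAATTCCC, which these letters do not cover. Parp1 held 3 GC boxes and Sirt1 held 6, where 32.7% of all promoters hold at least 1, and the Cd38 window held none of the 4 motifs.

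The first comparison asked how IL-1b alone moved the NAD consumers in cells that kept the targeted gene. Parp2 fell, and no other member was called. Parp2 stood at 26.8 and 25.1 CPM in LDHA flox GFP libraries and at 23.2 and 20.4 CPM with GFP + IL-1b. In NAMPT flox it stood at 22.6 and 23.4 CPM, and at 17.9 and 17.3 CPM with IL-1b. In NFKBIZ flox it stood at 21.5 and 20.6 CPM, and at 15.6 and 16.7 CPM with IL-1b. Both IL-1b libraries lay below both GFP libraries in all 3 lines. In the mean of the 3 lines the log2 fold change of Parp2 was -0.32 (SE 0.06), with an adjusted p of 0.000115 in edgeR's quasi-likelihood test with Benjamini-Hochberg adjustment, which is the test behind every adjusted p given here. Parp2 was 1 of 10 members called, where 49.5% of the 16727 genes tested were called.

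Within single lines the fall of Parp2 passed the test in NAMPT flox (log2 fold change -0.35, SE 0.10, adjusted p = 0.0125 in edgeR's test) and in NFKBIZ flox (-0.37, SE 0.10, adjusted p = 0.00946). In LDHA flox it was -0.24 (SE 0.10) with an adjusted p of 0.0761. The share of all genes called was 31.7% in NAMPT flox, 30.2% in NFKBIZ flox and 27.9% in LDHA flox. No member was called in LDHA flox by edgeR, by DESeq2 or by limma's voomWithQualityWeights, and 1 member was under an unadjusted p of 0.05. The 8 chondrocyte markers fell with IL-1b as well, from sums of 63695 to 81873 CPM in the GFP libraries to 23951 to 28588 CPM in the GFP + IL-1b libraries, and all 8 were called lower in each line. The part of this shift in the level of Parp2 was not tested. In bulk RNA of this kind, fewer cells of a type and less RNA per cell cannot be told apart.

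**Figure D2:**
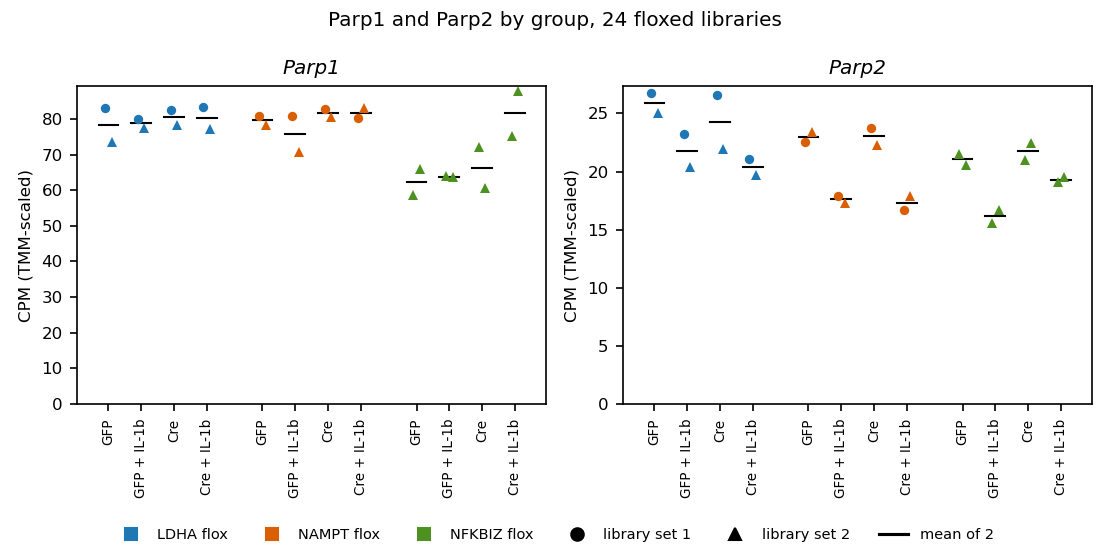
Parp1 and Parp2 in the 24 floxed libraries, as CPM, by line and treatment, with circles for set 1, triangles for set 2 and a line at the mean of the 2 libraries. Parp2 lies lower with IL-1b than without it in the GFP cultures of each line, and within NFKBIZ flox Parp1 lies highest with Cre + IL-1b.

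The next comparison asked what Cre did without IL-1b. Cd38 rose in LDHA flox and NAMPT flox, and no other member was called. In LDHA flox it stood at 0 and 0.0806 CPM with GFP and at 1.01 and 0.542 CPM with Cre. In NAMPT flox it stood at 0.380 and 0.105 CPM with GFP and at 1.73 and 0.935 CPM with Cre. Both Cre libraries lay above both GFP libraries in each of these lines. In NFKBIZ flox the libraries stood at 0.0889 and 0.0843 CPM with GFP and at 0 and 0.184 CPM with Cre, and the groups overlapped.

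The counts behind these Cd38 levels were low. In LDHA flox 46 counts in the Cre libraries stood against 2 in the GFP libraries, a scaled ratio of 24.7 with an exact 95% interval of 6.45 to 210. In NAMPT flox 90 counts stood against 17, a ratio of 4.85 (2.87 to 8.70). Intervals cover counting error only, and they are too narrow here, since in all 32 libraries between 58.8% and 67.5% of genes with 1 to 10 counts had an even count. The floor of 3 counts lay between 0.0760 and 0.185 CPM. The fitted log2 fold change of Cd38 was 4.38 (SE 1.03, adjusted p = 0.0108) in LDHA flox and 2.28 (SE 0.69, adjusted p = 0.0324) in NAMPT flox by edgeR's test, and it depends on the prior count where a group is at or near 0. Cd38 passed the filter of 1 CPM in the floxed libraries only through libraries with Cre, so a difference was needed for it to be tested at all. With no filter it was called too, at adjusted p-values of 6.68e-07 and 0.000172 by edgeR, on the same counts and so without separate support. The share of all genes called was 6.44% in LDHA flox and 12.2% in NAMPT flox. With limma in place of edgeR, with set 2 alone, or without 1 of the set 1 libraries compared, the call in LDHA flox was lost, and the adjusted p reached 0.663. The call in NAMPT flox was lost without either GFP library, without the set 1 Cre library and with set 2 alone, and the adjusted p reached 0.327.

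In NFKBIZ flox no member was called by edgeR, DESeq2 or limma without IL-1b, none was under an unadjusted p of 0.05, and 0.873% of all genes were called. In the mean of the 3 lines Cd38 had a log2 fold change of 2.25 (SE 0.70, adjusted p = 0.0317 by edgeR), where 15.9% of all genes were called, and this call was kept under 10 of 20 alternatives. The difference of the Cre effect between lines was called for no member by edgeR, DESeq2 or limma in any pair of lines. Under an unadjusted p of 0.05 there was 1 member in LDHA flox against NFKBIZ flox and none in the other pairs. The share of all genes called was 0.0299% for NAMPT flox minus LDHA flox, 3.43% for NAMPT flox minus NFKBIZ flox and 1.08% for LDHA flox minus NFKBIZ flox.

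The third comparison was Cre against GFP with IL-1b present. Sirt2, Sirt7 and Cd38 rose and Sirt4 fell in both LDHA flox and NAMPT flox, and none of these 4 was called in NFKBIZ flox. The count was 4 of 10 members in LDHA flox, where 33.9% of all genes were called (15.9% higher, 18% lower), and 4 of 10 in NAMPT flox, where 45.3% were called (21.5% higher, 23.7% lower). In NFKBIZ flox 1 of 10 was called, which was Parp1, where 21.5% of all genes were called. These counts were near the shares of all genes, and 1 of the 4 in each line was Cd38, which passed the filter only through libraries with Cre. The median log2 fold change of the members was 0.03 in LDHA flox, -0.05 in NAMPT flox and -0.03 in NFKBIZ flox, beside -0.04, -0.07 and 0.01 over all genes tested. The chondrocyte markers moved with the same split of the lines. They summed to 24211 to 24688 CPM with GFP + IL-1b and to 13041 to 13839 CPM with Cre + IL-1b in LDHA flox, and to 23951 to 24409 CPM and 13999 to 14334 CPM in NAMPT flox. In NFKBIZ flox they summed to 26391 to 28588 CPM with GFP + IL-1b and to 32236 to 34447 CPM with Cre + IL-1b. Of the 8 markers 7 were called lower in LDHA flox and 6 in NAMPT flox, whereas in NFKBIZ flox 3 were higher and 1 lower. The 6 fibroblast and perichondrium markers were all lower in LDHA flox and NAMPT flox, and in NFKBIZ flox 1 was higher and 2 lower. The part of these shifts in the levels of Sirt2, Sirt4, Sirt7 and Cd38 was not tested.

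**Figure D3:**
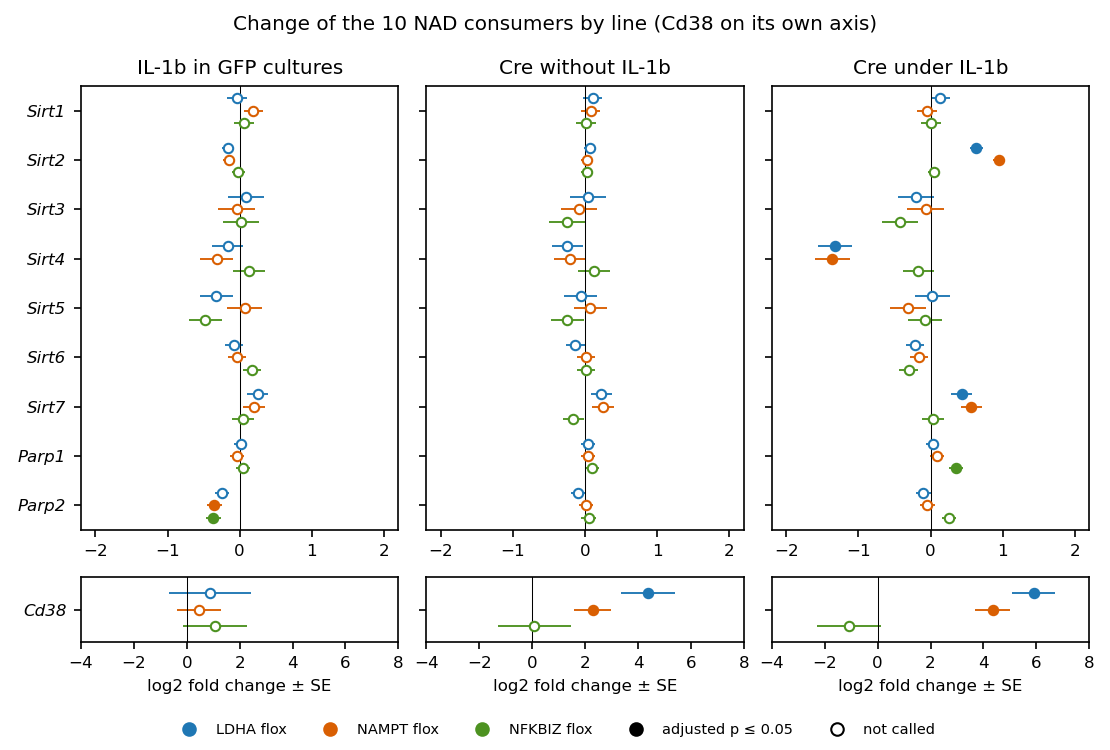
Log2 fold change of each member with its SE, by line, for IL-1b in GFP cultures, Cre without IL-1b and Cre under IL-1b, with filled points for an adjusted p of 0.05 or less in edgeR's test and Cd38 on its own axis. Sirt2 is higher and Sirt4 lower under Cre with IL-1b in LDHA flox and NAMPT flox, and both lie near 0 in NFKBIZ flox.

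Sirt2 was the most precisely measured of the members that rose. In LDHA flox it stood at 54.2 and 49.1 CPM with GFP + IL-1b and at 77.2 and 83.5 CPM with Cre + IL-1b. In NAMPT flox it stood at 52.1 and 46.7 CPM, and at 94.1 and 98.2 CPM with Cre + IL-1b. The Cre + IL-1b libraries were the 4 highest of the 16 libraries in these lines, and they overlapped no other group. The log2 fold change was 0.64 (SE 0.08, adjusted p = 5.04e-06) in LDHA flox and 0.94 (SE 0.09, adjusted p = 1.58e-08) in NAMPT flox by edgeR's test. In NFKBIZ flox the GFP + IL-1b libraries stood at 77.1 and 78.0 CPM and the Cre + IL-1b libraries both at 80.6 CPM, a log2 fold change of 0.05 (interval of 2 SE, -0.11 to 0.22; adjusted p = 0.718 by edgeR). The difference from NFKBIZ flox was itself called, at 0.89 (SE 0.12, adjusted p = 8.52e-06) for NAMPT flox and 0.58 (SE 0.12, adjusted p = 0.00118) for LDHA flox, in comparisons by edgeR added after the data were seen. Of the 10 members 3 were called in each of these differences, where 32.2% of all genes were called for NAMPT flox minus NFKBIZ flox and 22.5% for LDHA flox minus NFKBIZ flox. No member was called for NAMPT flox minus LDHA flox by edgeR, DESeq2 or limma, with 1 under an unadjusted p of 0.05, where 0.138% of all genes were called, and Sirt2 stood there at 0.31 (SE 0.12). The overlapping Nfkbib, which encodes an inhibitor of NF-kB, rose by 0.45 (SE 0.10, adjusted p = 0.000712 by edgeR) in NAMPT flox and stood at 0.21 (SE 0.10, adjusted p = 0.0973) in LDHA flox, and its part in the counts of Sirt2 was not tested.

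The lines also differed in Sirt2 before any Cre. The 2 NFKBIZ flox GFP libraries both stood at 79.2 CPM, above the 58.4 and 57.3 CPM of LDHA flox GFP and the 56.3 and 55.5 CPM of NAMPT flox GFP. The library set and the line cannot be told apart for NFKBIZ flox. The Cre + IL-1b libraries of NFKBIZ flox lay within the range of LDHA flox Cre + IL-1b. Markers differed before Cre as well. Fibroblast and perichondrium markers summed to 1087 to 1275 CPM in NFKBIZ flox GFP. In LDHA flox GFP they summed to 5610 to 5765 CPM and in NAMPT flox GFP to 4751 to 4933 CPM. Chondrocyte markers went the other way, at 70978 to 81873 CPM against 64809 to 65291 and 63695 to 65184 CPM. The part of these differences in the levels of Sirt2, Sirt1 and Parp1 was not tested.

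Sirt4, a mitochondrial sirtuin with lipoamidase and ADP-ribosyltransferase activity, moved the other way. In LDHA flox it stood at 7.16 and 7.19 CPM with GFP + IL-1b and at 2.71 and 3.01 CPM with Cre + IL-1b. In NAMPT flox it stood at 4.80 and 6.85 CPM, and at 1.85 and 2.75 CPM with Cre + IL-1b. These 4 Cre + IL-1b libraries were the lowest of the 24 floxed libraries. The log2 fold change was -1.33 (SE 0.24, adjusted p = 0.000145) in LDHA flox and -1.36 (SE 0.24, adjusted p = 0.000112) in NAMPT flox by edgeR's test. In NFKBIZ flox it stood at 6.96 and 9.34 CPM with GFP + IL-1b and at 7.60 and 6.95 CPM with Cre + IL-1b, groups that overlapped (-0.17, SE 0.22, adjusted p = 0.655 by edgeR). The added difference from NFKBIZ flox was called at -1.16 (SE 0.32, adjusted p = 0.0121) for LDHA flox and -1.20 (SE 0.33, adjusted p = 0.00814) for NAMPT flox by edgeR. Within set 2 alone, which leaves 1 library per group in the other lines, these differences were -1.07 (SE 0.39, adjusted p = 0.113) and -1.13 (SE 0.39, adjusted p = 0.0633).

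Sirt7 rose in the same 2 lines, by less. In LDHA flox it stood at 17.4 and 20.4 CPM with GFP + IL-1b and at 27.7 and 23.0 CPM with Cre + IL-1b. In NAMPT flox it stood at 18.8 and 19.2 CPM, and at 25.9 and 31.0 CPM with Cre + IL-1b. The groups did not overlap in either line. The log2 fold change was 0.43 (SE 0.15, adjusted p = 0.0281) in LDHA flox and 0.57 (SE 0.15, adjusted p = 0.00396) in NAMPT flox by edgeR's test. The call in LDHA flox was lost without the set 1 library of either group and with set 2 alone, where the adjusted p reached 0.585, and the call in NAMPT flox was lost without the Cre + IL-1b library of set 2, at an adjusted p of 0.0611. Mafg, the small MAF transcription factor on the same strand, was at -0.32 (adjusted p = 0.0441) in LDHA flox and at -0.18 (adjusted p = 0.223) in NAMPT flox by edgeR, and its part in the counts of Sirt7 was not tested. In NFKBIZ flox Sirt7 stood at 19.5 and 21.1 CPM with GFP + IL-1b and at 19.2 and 22.4 CPM with Cre + IL-1b (0.03, SE 0.15, adjusted p = 0.911 by edgeR). The added difference of Sirt7 from NFKBIZ flox was 0.53 (SE 0.21) for NAMPT flox and was not called in the main edgeR fit, at an adjusted p of 0.0615. It was called by DESeq2 (adjusted p = 0.0430) and by edgeR with RLE factors (0.0482), no filter (0.0233) and the replicate block (0.0420), but not by limma. For LDHA flox the added difference of Sirt7 from NFKBIZ flox was not called by edgeR, DESeq2 or limma.

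**Figure D4:**
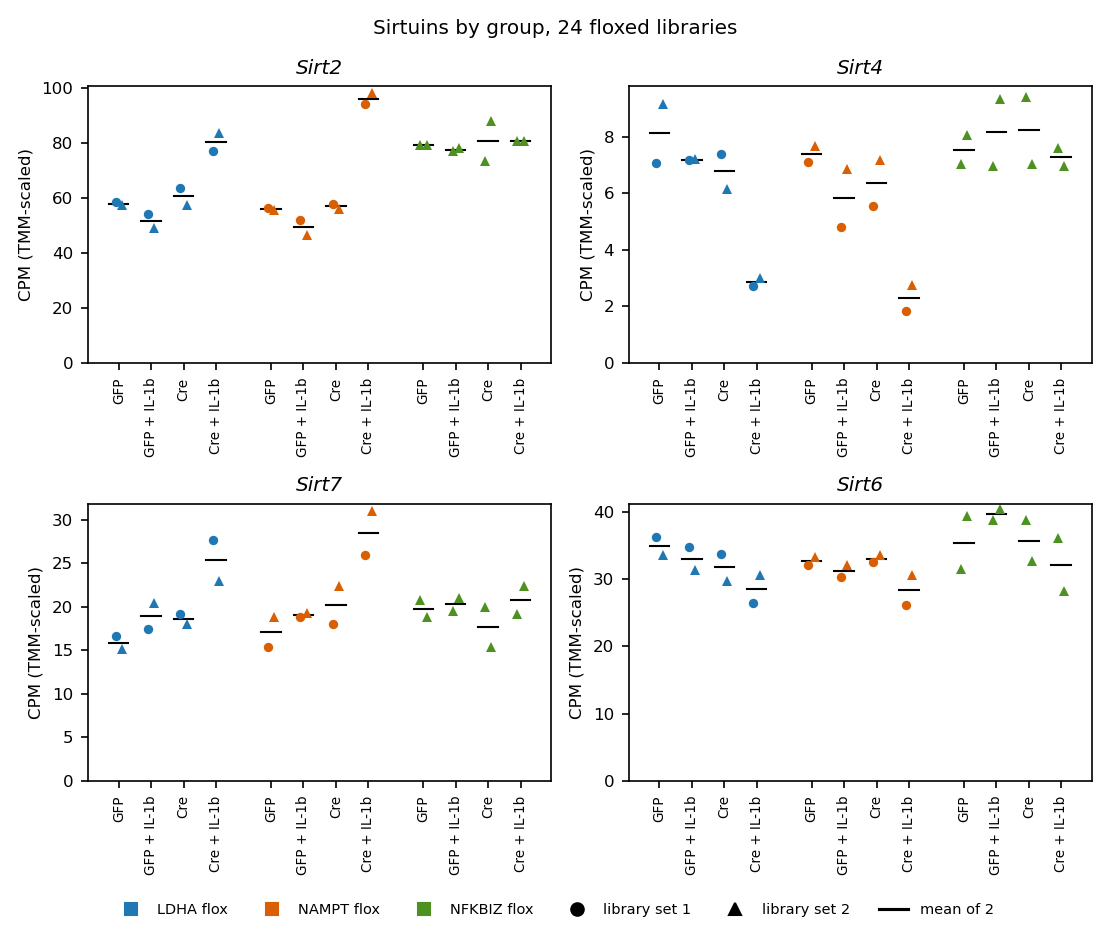
Sirt2, Sirt4, Sirt7 and Sirt6 in the 24 floxed libraries, as CPM, by line and treatment, with circles for set 1, triangles for set 2 and a line at the mean of the 2 libraries. In LDHA flox and NAMPT flox the Cre + IL-1b libraries are highest for Sirt2 and lowest for Sirt4, and in NFKBIZ flox they lie among the other libraries.

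Sirt6 was lower in the mean of the 3 lines and in no single line. It stood at 34.8 and 31.3 CPM with GFP + IL-1b and at 26.4 and 30.6 CPM with Cre + IL-1b in LDHA flox. In NAMPT flox the values were 30.3 and 32.1 CPM against 26.1 and 30.5 CPM, and in NFKBIZ flox 38.8 and 40.5 CPM against 36.1 and 28.2 CPM. The groups were apart in LDHA flox and NFKBIZ flox and overlapped in NAMPT flox. The mean log2 fold change was -0.23 (SE 0.07, adjusted p = 0.0145 by edgeR), and it was lost without any 1 of 3 Cre + IL-1b libraries, the set 1 library of LDHA flox or NAMPT flox or replicate 2 of NFKBIZ flox, and with set 2 alone, where the adjusted p reached 0.467. In that mean 6 of 10 members were called, 4 higher and 2 lower, where 50.5% of all genes were called (23.5% higher, 27% lower).

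Parp1 was the only member called in NFKBIZ flox under IL-1b. It stood at 64.0 and 63.6 CPM with GFP + IL-1b and at 75.3 and 87.8 CPM with Cre + IL-1b, and the groups did not overlap. The log2 fold change was 0.35 (SE 0.10, adjusted p = 0.0112 by edgeR). It was kept under 8 of 12 alternatives and stood at an adjusted p of 0.0655 when the line was fitted alone. In LDHA flox Parp1 stood at 80.0 and 77.5 CPM with GFP + IL-1b and at 83.2 and 77.1 CPM with Cre + IL-1b, and in NAMPT flox at 80.9 and 70.7 CPM and at 80.1 and 83.1 CPM. The GFP + IL-1b and Cre + IL-1b libraries overlapped in both of these lines. By edgeR, the added difference of Parp1 from NFKBIZ flox was -0.26 (adjusted p = 0.155) for NAMPT flox. For LDHA flox it was -0.33 (adjusted p = 0.0963), and neither difference was called. The NFKBIZ flox GFP libraries began lower, at 58.7 and 66.0 CPM, than the GFP libraries of the other lines, which ranged from 73.5 to 83.2 CPM. Line and library set cannot be told apart in this gap. In the mean of the 3 lines the log2 fold change of Parp1 was 0.16 (SE 0.06, adjusted p = 0.0233 by edgeR), a call kept under 13 of 20 alternatives.

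Cd38 had the largest change in ratio. In LDHA flox it stood at 0.107 and 0 CPM with GFP + IL-1b and at 4.66 and 3.81 CPM with Cre + IL-1b. In NAMPT flox it stood at 0.560 and 0.123 CPM, and at 8.90 and 6.54 CPM with Cre + IL-1b. The 4 Cre + IL-1b libraries of these lines were the highest of all 32 libraries. In counts, 217 stood against 4 in LDHA flox, a ratio of 63.4 (exact 95% interval 24.4 to 235), and 490 against 16 in NAMPT flox, a ratio of 20.55 (12.5 to 36.2). The fitted log2 fold change was 5.90 (SE 0.82, adjusted p = 8.73e-06) in LDHA flox and 4.34 (SE 0.67, adjusted p = 1.94e-05) in NAMPT flox by edgeR's test. Since Cd38 was tested only through its high Cre libraries, these p-values do not stand on a filter independent of the change. With no filter the same counts gave an adjusted p of 8.96e-22 and 8.05e-19 by edgeR, so the p-values depend on the filter and this is not separate support. In NFKBIZ flox it stood at 0.200 and 0.174 CPM with GFP + IL-1b and at 0.172 and 0 CPM with Cre + IL-1b, a ratio of 0.464 (0.102 to 1.73) on 4 against 8 counts, and no change was detectable at this depth. The added difference from NFKBIZ flox was called, at 6.97 (SE 1.56, adjusted p = 0.00252) for LDHA flox and 5.41 (SE 1.42, adjusted p = 0.00592) for NAMPT flox by edgeR.

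Markers of other cell types were read beside Cd38. The 4 endothelial markers rose in sum with it. They summed to 16.8 to 21.0 CPM with Cre + IL-1b against 4.73 to 5.26 CPM with GFP + IL-1b in LDHA flox, and to 22.9 to 26.2 CPM against 6.85 to 7.36 CPM in NAMPT flox. Without IL-1b the sums were 10.1 to 11.0 CPM with Cre against 3.27 to 3.49 CPM with GFP in LDHA flox, and 13.9 to 14.0 CPM against 3.55 to 4.25 CPM in NAMPT flox. In NFKBIZ flox they were 6.70 to 7.73 CPM with Cre + IL-1b against 3.26 to 4.30 CPM. Most of the sum was Kdr, a VEGF receptor, at 17.7 and 13.9 CPM in LDHA flox Cre + IL-1b and 21.7 and 19.7 CPM in NAMPT flox Cre + IL-1b. Pecam1, another of the 4, was called lower in NAMPT flox (-1.77, adjusted p = 0.00247 by edgeR), Cdh5 was called higher there (1.39, adjusted p = 0.0284), and Tek was called in neither line. The 9 macrophage and leukocyte markers summed to 31.2 to 33.1 CPM in LDHA flox Cre + IL-1b, against 42.5 to 43.5 CPM with GFP + IL-1b. In NAMPT flox they summed to 25.1 to 25.3 CPM against 33.4 to 39.6 CPM. None of the 8 tested was called higher in either line and 2, Cd68 and Cd14, were called lower. Of the 5 lymphocyte markers 2 could be tested, of which Cd79a, a subunit of the B cell receptor, was higher in both lines and Cd3e, a subunit of the T cell receptor complex, was not called, at 0.16 (SE 0.44, adjusted p = 0.830 by edgeR) in LDHA flox and 0.10 (SE 0.46, adjusted p = 0.889) in NAMPT flox. Cd79a stood at 0.428 and 0.517 CPM with GFP + IL-1b and at 1.92 and 1.25 CPM with Cre + IL-1b in LDHA flox, and at 1.24 and 0.247 CPM and at 2.75 and 2.38 CPM in NAMPT flox (log2 fold changes of 1.77 and 1.68, adjusted p = 0.00697 and 0.00499 by edgeR). Ms4a1, a surface marker of B cells, was at 0 in 3 of the 4 Cre + IL-1b libraries of these lines. None of the macrophage and leukocyte markers was at 0 throughout a group. The part of other cell types in the level of Cd38 was not tested.

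Bst1, the neighbour of Cd38 with the same enzyme activity, was also higher with Cre in these lines. With IL-1b it stood at 1.39 and 1.27 CPM with GFP and at 12.0 and 11.2 CPM with Cre in LDHA flox, and at 0.801 and 0.987 CPM and at 11.1 and 11.6 CPM in NAMPT flox. In NFKBIZ flox it stood at 1.00 and 1.09 CPM with GFP + IL-1b and at 0.258 and 0.304 CPM with Cre + IL-1b, the other direction. The log2 fold changes were 3.12 (adjusted p = 3.07e-06) in LDHA flox, 3.66 (adjusted p = 7.17e-07) in NAMPT flox and -1.88 (adjusted p = 0.0266) in NFKBIZ flox by edgeR's test. Bst1 also rose with IL-1b in the GFP cultures, by 3.24 (SE 0.40, adjusted p = 8.41e-07 by edgeR) in the mean of the 3 lines. Cd38 stood there at 0.81 (interval of 2 SE, -0.62 to 2.24; adjusted p = 0.374), on 2 to 17 counts per group, and the difference between the genes was not tested.

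**Figure D5:**
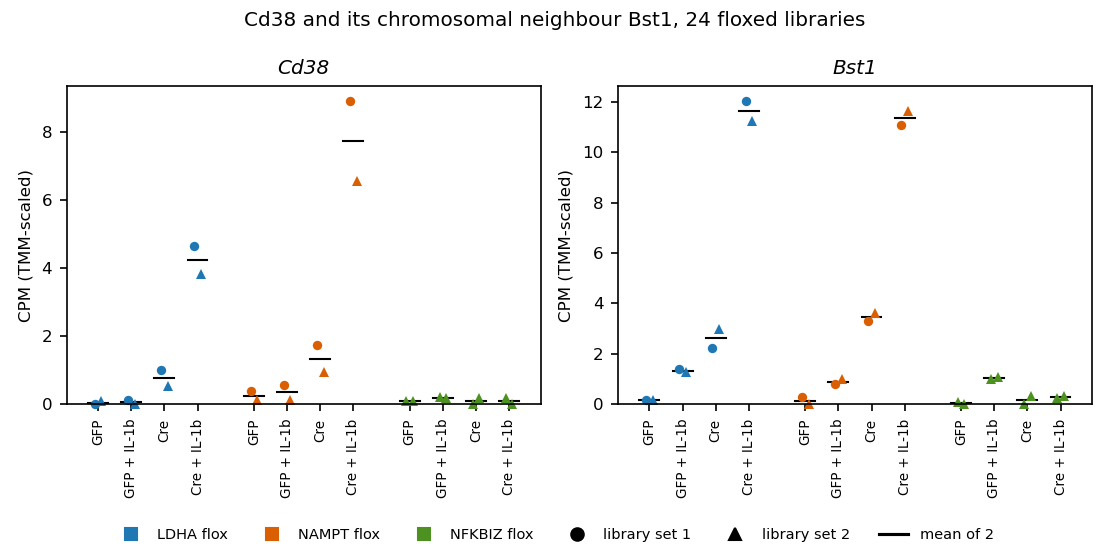
Cd38 and its neighbour Bst1 in the 24 floxed libraries, as CPM, by line and treatment, with circles for set 1, triangles for set 2 and a line at the mean of the 2 libraries. Both are highest in LDHA flox and NAMPT flox Cre + IL-1b, where Cd38 reaches 8.90 CPM, and in NFKBIZ flox both stay near 1 CPM or below.

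Whether the Cre effect depended on IL-1b was tested as the IL-1b response after Cre minus that after GFP. Sirt2 and Sirt4 passed in LDHA flox and NAMPT flox, which is 2 of 10 members in each, where 12.8% and 19.3% of all genes were called. For Sirt2 the difference was 0.57 (SE 0.12, adjusted p = 0.00257) in LDHA flox and 0.91 (SE 0.12, adjusted p = 1.43e-05) in NAMPT flox by edgeR. For Sirt4 it was -1.08 (SE 0.32, adjusted p = 0.0286) and -1.15 (SE 0.33, adjusted p = 0.0167), and these calls were kept under 9 and 11 of 16 alternatives. Cd38, at 1.53 (SE 2.05, adjusted p = 0.730) in LDHA flox and 2.06 (SE 1.00, adjusted p = 0.169) in NAMPT flox by edgeR, did not pass. With no filter it passed in NAMPT flox, at 2.12 (SE 0.72, adjusted p = 0.0378). In NFKBIZ flox no member passed by edgeR, DESeq2 or limma and none was under an unadjusted p of 0.05, where 8.54% of all genes were called. The interaction of Sirt2 was larger in NAMPT flox than in NFKBIZ flox by 0.89 (SE 0.17, adjusted p = 0.00180 by edgeR), and 9.34% of all genes were called in that added comparison. Against NFKBIZ flox the LDHA flox interaction of Sirt2 was not called by edgeR (adjusted p = 0.0690), where 5.21% of all genes were called.

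Read from the other side, IL-1b was compared with no IL-1b in the cells that had received Cre. In LDHA flox 4 of 10 members were called, where 35.4% of all genes were, and in NAMPT flox 5 of 10, where 41.1% were. Both counts include Cd38, which passed the filter in the floxed libraries only through libraries with Cre. Cd38 rose from 1.01 and 0.542 CPM to 4.66 and 3.81 CPM in LDHA flox, a ratio in counts of 5.23 (exact 95% interval 3.79 to 7.36), and in NAMPT flox the ratio was 5.66 (4.51 to 7.17). These intervals again cover counting error only and are too narrow. Sirt2 rose by 0.41 (SE 0.08, adjusted p = 0.000613 by edgeR) in LDHA flox and by 0.77 (SE 0.08, adjusted p = 2.63e-07) in NAMPT flox. Sirt4 fell by 1.25 (SE 0.24, adjusted p = 0.000263) and by 1.47 (SE 0.24, adjusted p = 3.91e-05) on the log2 scale in the same lines. Parp2 again fell with IL-1b in NAMPT flox, by 0.40 (SE 0.10, adjusted p = 0.00281), and in LDHA flox it was at -0.25 with an adjusted p of 0.0616 by edgeR, of 0.0429 with the replicate block and of 0.0384 by limma. In NFKBIZ flox only Parp1 was called, at 0.31 (SE 0.10, adjusted p = 0.0215 by edgeR), where 27.2% of all genes were. These comparisons were added after the data were seen, and they share libraries with those above.

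Sirt1, Sirt3 and Sirt5 were called in none of the comparisons. Sirt1 ranged from 14.6 to 26.1 CPM over the floxed libraries, with NFKBIZ flox at 14.6 to 18.9 CPM, LDHA flox at 17.5 to 22.4 CPM and NAMPT flox at 21.9 to 26.1 CPM, so that the NFKBIZ flox and NAMPT flox ranges were separate whatever the treatment. For NFKBIZ flox the line and the library set cannot be told apart here either. Sirt3 ranged from 3.54 to 8.12 CPM and Sirt5 from 2.30 to 6.94 CPM, so that their spread between libraries was wide for their level. Psmd13, a proteasome subunit that overlaps Sirt3, rose under Cre with IL-1b by 0.70 in LDHA flox and 0.93 in NAMPT flox, where Sirt3 stood at -0.20 (SE 0.25) and -0.07 (SE 0.26).

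In WT chondrocytes FX11 tested the inhibition of LDHA by a drug in place of its deletion. No member was called by edgeR for FX11, for IL-1b or for FX11 added to IL-1b, none was under an unadjusted p of 0.05, and neither DESeq2 nor limma called one. The share of all 15461 genes called was 0% in each, with 68, 153 and 102 genes under an unadjusted p of 0.05, and DESeq2 called 2, 6 and 1 genes. Parp1 stood at 72.3 and 65.5 CPM untreated, at 58.4 and 52.0 CPM with FX11, at 62.0 and 50.5 CPM with IL-1b and at 55.5 and 42.2 CPM with both. The untreated libraries were highest, and the log2 fold change was -0.31 (SE 0.20) for FX11 and -0.29 (SE 0.20) for IL-1b. Cd38 stood at 0.118 and 0.220 CPM untreated, at 0.0833 and 1.75 CPM with FX11, at 1.35 and 0.671 CPM with IL-1b and at 0.636 and 0.176 CPM with both. The value of 1.75 CPM was in the library labelled FX11 that held 2014 CPM of Mmp3. Without the 2 libraries that went against their labels no member was called either. The 9 macrophage and leukocyte markers summed to between 99.99 and 280 CPM in WT libraries, against at most 66.3 CPM in floxed ones, and their part in the WT levels of Cd38 was not tested.

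Other genes of NAD turnover were read from fixed lists, in the mean of the 3 lines. Their counts stand beside the shares of all genes called, which were 25.9% higher and 23.6% lower for IL-1b, 9.49% and 6.42% for Cre without IL-1b, and 23.5% and 27% for Cre under IL-1b. Of 14 other PARP family genes IL-1b raised 8 and lowered none, where 49.5% of all genes were called, with a median log2 fold change of 0.26 beside 0.02 over all genes tested. Parp14, a mono-ADP-ribosyltransferase of interferon and cytokine responses, rose by 1.41 (SE 0.21, adjusted p = 1.32e-05 by edgeR) and Parp8 by 0.88 (SE 0.07, adjusted p = 1.14e-09). Cre without IL-1b raised 3 and lowered none, where 15.9% of all genes were called, with Parp10, a mono-ADP-ribosyltransferase, at 0.73 and Parp14 at 1.08. Under IL-1b, Cre raised 5 and lowered 5, where 50.5% of all genes were called. Parp10 rose by 0.92 (adjusted p = 5.29e-07) and Tnks2, a tankyrase, by 0.22 (adjusted p = 0.000370), whereas Parp8 fell by 0.65 (adjusted p = 1.18e-07) and Tiparp, a PARP induced by the aryl hydrocarbon receptor, fell by 0.52 (adjusted p = 2.42e-05), all by edgeR.

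Of 8 genes that remove or break down ADP-ribose, IL-1b raised 6 and lowered none, where 49.5% of all genes were called, and Cre under IL-1b lowered 3, where 27% were lower. Without IL-1b Cre changed none in edgeR's test, with Adprh and Adprhl2 under an unadjusted p of 0.05. Macrod1, a mono-ADP-ribose hydrolase, rose with IL-1b by 0.94 (SE 0.07, adjusted p = 1.96e-10) and Nudt9, an ADP-ribose pyrophosphatase, by 0.32 (SE 0.04, adjusted p = 3.26e-06). Macrod2 fell under Cre with IL-1b by 1.12 (SE 0.15, adjusted p = 2.06e-06) and Oard1 fell by 0.37 (SE 0.08, adjusted p = 0.000996). The median log2 fold changes of the list were 0.14, 0.06 and -0.07 beside 0.02, -0.000882 and -0.04 over all genes.

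Of the 6 partners of sirtuins and PARPs, Xrcc1, a scaffold of single-strand break repair that binds poly(ADP-ribose), moved with Cre in all 3 lines. It stood at 47.0 and 48.7 CPM with GFP + IL-1b and at 72.1 and 70.4 CPM with Cre + IL-1b in LDHA flox, at 45.9 and 39.2 CPM and at 71.6 and 68.6 CPM in NAMPT flox, and at 39.9 and 46.2 CPM and at 63.2 and 66.1 CPM in NFKBIZ flox. The groups did not overlap in any line, and the mean log2 fold change was 0.62 (SE 0.05, adjusted p = 1.95e-09 by edgeR). Polb, the repair polymerase, rose by 0.35 (SE 0.08, adjusted p = 0.000586) and Hpf1, which directs PARP1 to serine, fell by 0.24 (adjusted p = 0.0288). With IL-1b in the GFP cultures Hpf1 rose by 0.27 and Polb and Lig3 each fell by 0.35. In all, 4 rose and 1 fell under Cre with IL-1b, where 23.5% of all genes were higher and 27% lower.

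Of 13 genes of NAD synthesis and linked steps 11 could be tested. The list takes in Nnmt and the NAD kinases Nadk and Nadk2, which do not make NAD. IL-1b raised 6 and lowered 1, where 49.5% of all genes were called, with Nmnat3, a mitochondrial NMN adenylyltransferase, up by 1.70 (SE 0.09, adjusted p = 1.62e-12 by edgeR), NAD kinase Nadk up by 0.55, and Nmrk1, a nicotinamide riboside kinase, down at -0.37. Cre without IL-1b raised 1 and lowered 3, where 15.9% were called, with Nmnat2, the Golgi-associated form, at 0.69, Nmnat3 at -1.92 and Nampt at -0.98, a mean that includes the NAMPT flox line where Nampt is the targeted gene. Under IL-1b Cre raised 4 and lowered 5, where 50.5% were called. Nmnat3 fell by 3.33 (SE 0.10, adjusted p = 2.96e-16 by edgeR) and Nt5e, the ectonucleotidase CD73, fell by 1.88 (SE 0.05, adjusted p = 5.70e-17), whereas Nmnat2 rose by 1.33 (SE 0.20, adjusted p = 8.23e-06). Nmnat3 stood between 41.8 and 76.7 CPM in the 6 GFP + IL-1b libraries and between 3.42 and 7.25 CPM in the 6 Cre + IL-1b libraries, with no overlap. Under IL-1b, Cre also lowered Nampt in LDHA flox and NFKBIZ flox, by 0.55 and 0.97, where it was not the targeted gene.

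The other NAD glycohydrolases were Bst1 and Sarm1, the NADase of axon degeneration. Sarm1 rose with Cre by 0.46 (SE 0.15, adjusted p = 0.0361 by edgeR) without IL-1b and by 0.85 (SE 0.15, adjusted p = 8.70e-05) with it, in the mean of the 3 lines. It stood between 1.73 and 3.00 CPM in the GFP + IL-1b libraries and between 2.26 and 8.03 CPM in the Cre + IL-1b libraries, ranges that overlapped across lines.

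As a description of pattern, genes were ranked by Pearson r to each member over the 12 floxed group means, among 14232 genes. The genes most like Sirt4 were Acox2 (r = 0.993) and Atl3 (r = 0.990), and those most like Sirt7 were Fam19a5 (r = 0.991) and Tecpr1 (r = 0.989). For Cd38 they were Tmem37 (r = 0.982) and Ralgps2 (r = 0.968), and for Sirt2 Nyap1 (r = 0.981) and Ap3b1 (r = 0.965). Parp1 was most like Pcnt (r = 0.970) and Kif18b (r = 0.967), and Parp2 most like Xrcc6 (r = 0.938) and Eln (r = 0.937). The other members reached 0.960 (Sirt1 with Actn2), 0.962 (Sirt5 with Ggact), 0.942 (Sirt6 with Ero1l) and 0.933 (Sirt3 with Dcun1d2). With 12 group means and so many candidates, high values arise for any gene with a clear pattern, and the group means share their libraries' depth and sets.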

How the data were processed

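RNA depleted of ribosomal RNA was sequenced from the 32 libraries. The authors aligned reads with STAR to the GRCm38 primary assembly, and counted uniquely aligned, unambiguous reads per gene with featureCounts. The deposited counts are not normalized. The deposited CPM are counts over the library total, and the authors' deposited RPKM divide these by exonic length. Both were left out of the tests. Whether counting used strand or read pairs is not given in the sources used here.

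The 10 members, the other gene lists and the added comparisons were chosen with earlier results of these data known. Groups came from the labels. Counts were fitted with edgeR 4.0.16 in R 4.3.3 (TMM, quasi-likelihood test, two-sided), over the 24 floxed libraries in 1 fit of 12 group means and over the 8 WT libraries in another. The study itself tested with limma's voomWithQualityWeights after TMM scaling in edgeR, which was run here as an alternative (limma 3.58.1), as was DESeq2 1.42.0. A gene was tested if any library exceeded 1 CPM, after removal of 355 ribosomal RNA genes, and p-values were adjusted over all 16727 or 15461 genes. A gene was called at an adjusted p of 0.05 or less. CPM and RPKM printed here are scaled with TMM factors. GENCODE release M21 gave symbols for 40254 of 41388 identifiers, and RefSeq (GRCm38.p6) gave promoter windows for all 10 members.

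Named genes were all members, up to 2 higher and 2 lower genes per list with the smallest adjusted p, the deleted genes and Mmp3, and the 2 genes most like each member. Bst1, the single marker genes and the overlapping neighbours were named after their values were seen, and 1 lymphocyte marker is not reported here. Replicate numbers are the library sets in LDHA flox, NAMPT flox and WT, whereas both replicates of NFKBIZ flox are of set 2. Deviations from group means correlated at 0.405 to 0.647 within LDHA flox and 0.431 to 0.581 within NAMPT flox, so the numbers pair those libraries. In NFKBIZ flox (-0.30 to 0.10) they do not. The main fits hold no term for this pairing, and the replicate block was the alternative that did. The replicate block is a term for the library set, so it does not separate the replicates of NFKBIZ flox. Alternatives were DESeq2, limma, RLE factors, no filter, the replicate block, additive line terms, single-line fits, each library left out and, added after seeing the data, set 2 alone and halved counts. Tested on simulated data, the fit for Cre under IL-1b in LDHA flox recovered 184 of 200 genes changed 2-fold among 15883, with 10 false calls. The changed genes were drawn from well-counted genes, and the simulated libraries held no difference between sets. The recovery therefore does not cover changes under 2-fold or counts as low as those of Cd38.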

Additional observations from a re-analysis of the deposited data

Results flagged for a closer look

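Members were noted for a closer look where the effect of Cre differed between lines in a test of the difference itself, all in comparisons added after the data were seen and by edgeR's quasi-likelihood test with Benjamini-Hochberg adjustment. No group had 4 or more libraries, so no single library was tested for standing apart.

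Under IL-1b, the effect of Cre on Sirt2 was larger in NAMPT flox than in NFKBIZ flox by 0.89 (SE 0.12, adjusted p = 8.52e-06) on the log2 scale, and larger in LDHA flox than in NFKBIZ flox by 0.58 (SE 0.12, adjusted p = 0.00118). For Sirt4 the same differences were -1.20 (SE 0.33, adjusted p = 0.00814) and -1.16 (SE 0.32, adjusted p = 0.0121). For Cd38 they were 5.41 (SE 1.42, adjusted p = 0.00592) and 6.97 (SE 1.56, adjusted p = 0.00252), on 4 to 8 counts per NFKBIZ flox group with IL-1b. Cd38 passed the filter on low values only through libraries with Cre of LDHA flox and NAMPT flox. With no filter its differences were called too (adjusted p = 2.64e-06 and 3.80e-08), on the same counts and so without separate support. The Sirt2 interaction of Cre with IL-1b was larger in NAMPT flox than in NFKBIZ flox by 0.89 (SE 0.17, adjusted p = 0.00180). The NFKBIZ flox libraries are all of set 2, and the fit of set 2 alone has 1 library per group of the other lines. There the Sirt2 interaction difference was 1.04 (SE 0.26, adjusted p = 0.0647) and the Sirt4 differences were -1.13 (SE 0.39, adjusted p = 0.0633) and -1.07 (SE 0.39, adjusted p = 0.113), no longer called but of similar size.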

How the results depend on the processing

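Of 449 recomputed counts of called members, 395 stayed within 1.5 times the reported count and 54 did not, and of 4485 recomputed values of single members none that was called changed sign. Sirt2, Sirt4 and Cd38 under Cre with IL-1b in LDHA flox and NAMPT flox were called under all 12 alternatives each, and Parp2 with IL-1b in the mean of the 3 lines under all 22. The alternatives refit the same counts, and in the floxed libraries Cd38 passed the filter only through libraries with Cre. Its calls under them are therefore not separate support. The causes of the changes below were not tested, except that set 2 alone holds fewer libraries.

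With set 2 alone, the number of members called was 0 for IL-1b in GFP cultures of NAMPT flox, 0 for Cre without IL-1b in the mean, in LDHA flox and in NAMPT flox, 0 and 1 for the interaction in LDHA flox and NAMPT flox, 0 for the interaction of NAMPT flox minus NFKBIZ flox, and 2, 3 and 0 for IL-1b in Cre cultures of LDHA flox, NAMPT flox and NFKBIZ flox. With no filter it was 0 for IL-1b in NFKBIZ flox. With limma it was 0 for Cre without IL-1b in the mean and in LDHA flox, and 0 for IL-1b in Cre cultures of NFKBIZ flox. Additive line terms and halved counts each gave 0 for Cre without IL-1b in the mean, where Cd38 with halved counts stood at an adjusted p of 0.0625 by edgeR. Parp2 with IL-1b in Cre cultures of LDHA flox passed with the replicate block (adjusted p = 0.0429) and by limma (0.0384). Fitted alone, NFKBIZ flox gave 0 for Cre under IL-1b and for IL-1b in Cre cultures. DESeq2 and the replicate block each gave 1 for the interaction of LDHA flox minus NFKBIZ flox, where Sirt2 had an adjusted p of 0.0401 with the replicate block against 0.0690 without it. For Cre under IL-1b in NAMPT flox minus NFKBIZ flox, Sirt7 was also called by DESeq2 (adjusted p = 0.0430). By edgeR it was called there with RLE factors (0.0482), no filter (0.0233) and the replicate block (0.0420).

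With each library left out in turn, the number called ranged from 1 to 2 for IL-1b in the mean, 0 to 1 in NAMPT flox and 0 to 2 in NFKBIZ flox, and from 0 to 1 for Cre without IL-1b in the mean, LDHA flox and NAMPT flox. For Cre under IL-1b it ranged from 4 to 6 in the mean, 3 to 4 in LDHA flox and NAMPT flox and 0 to 2 in NFKBIZ flox, and from 2 to 4 in the differences of NAMPT flox and LDHA flox from NFKBIZ flox. For the interaction it ranged from 1 to 2 in LDHA flox and NAMPT flox and 0 to 1 for LDHA flox minus NFKBIZ flox, and for IL-1b in Cre cultures from 3 to 4, 4 to 5 and 0 to 1. Without replicate 1 of NFKBIZ flox Cre + IL-1b, Cd38 in the mean under IL-1b had an adjusted p of 0.967 by edgeR. Low counts limit Cd38 most, since 3 counts correspond to 0.0760 to 0.185 CPM.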
